A study of Rattus norvegicus with 16 samples.

Results

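The genes of antigen presentation described here are 9 rows of the deposited gene table, chosen by symbol out of 17147. They comprise the major histocompatibility complex (MHC) class II chains RT1-Ba, RT1-Bb, RT1-Da and RT1-Db1, the invariant chain Cd74, the class II transactivator Ciita, and 3 genes of the class I pathway, B2m, Tap1 and Tap2. Fragments of polyA RNA were counted in the supraspinatus, a rotator cuff muscle, of Sprague Dawley rats. The 16 libraries form 4 groups of 4: unoperated muscle (0 days), and muscle taken 10, 30 or 60 days after the supraspinatus was torn through its full thickness on both sides with neurectomy (removal) of the suprascapular nerve that supplies it. The labels give neither the age nor the sex of the rats, nor which libraries came from the same animal, so p-values measure the spread between these libraries.

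MHC class II molecules present peptides from engulfed material to CD4+ T cells. They are made mainly by macrophages, dendritic cells and B cells, where Cd74 chaperones the alpha and beta chains and Ciita switches their genes on together. Class I molecules are carried by nearly all nucleated cells, pair a heavy chain with B2m, and present peptides that the Tap1 and Tap2 transporter moves into the endoplasmic reticulum; resting muscle fibres show little of them on their surface. In the rat the MHC is called RT1, with RT1-B and RT1-D as the class II pairs and RT1-A as the classical class I locus.

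The promoters are shown to mark control elements described for class II and class I genes, which the classes may share. They are the 250 bases before the start of each gene, from RefSeq on GRCr8, an assembly of a Brown Norway rat, whereas the reads came from Sprague Dawley rats and the submitters' processing notes name the build rn5. RefSeq held a promoter for 8 of the 9 genes; there was no entry for Ciita. Class II promoters carry an X box, bound by the RFX complex, and a Y box, bound by NF-Y, on which Ciita assembles. Class I promoters carry an interferon-stimulated response element (ISRE), bound by IRF proteins. Capitals mark the X box (searched by its name, 14 letters with at most 2 mismatches), the Y box core ATTGG and the ISRE letters (GAAA, any 2 bases, GAAA), each on both strands. The stretches are chr20:4515165-4515414 (plus strand) for RT1-Da, chr20:4560163-4560412 (minus) for RT1-Db1, chr20:4576807-4577056 (plus) for RT1-Ba, chr20:4604119-4604368 (minus) for RT1-Bb, chr3:129549080-129549329 (plus) for B2m and chr20:4668544-4668793 (minus) for Tap1.
RT1-Da: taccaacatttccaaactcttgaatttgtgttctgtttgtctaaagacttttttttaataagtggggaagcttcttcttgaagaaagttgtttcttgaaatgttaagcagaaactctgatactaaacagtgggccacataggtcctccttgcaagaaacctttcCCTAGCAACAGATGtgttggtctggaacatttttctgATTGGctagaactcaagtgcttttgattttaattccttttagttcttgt
RT1-Db1: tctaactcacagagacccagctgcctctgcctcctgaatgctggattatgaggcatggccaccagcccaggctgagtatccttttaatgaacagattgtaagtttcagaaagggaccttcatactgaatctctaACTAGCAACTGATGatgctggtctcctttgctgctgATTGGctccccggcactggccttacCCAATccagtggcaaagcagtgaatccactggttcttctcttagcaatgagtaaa
RT1-Ba: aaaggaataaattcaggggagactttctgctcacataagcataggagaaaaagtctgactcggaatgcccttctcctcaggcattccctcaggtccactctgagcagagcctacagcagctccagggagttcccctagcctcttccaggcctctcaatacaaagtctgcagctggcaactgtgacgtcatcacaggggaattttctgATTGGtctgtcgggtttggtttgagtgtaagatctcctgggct
RT1-Bb: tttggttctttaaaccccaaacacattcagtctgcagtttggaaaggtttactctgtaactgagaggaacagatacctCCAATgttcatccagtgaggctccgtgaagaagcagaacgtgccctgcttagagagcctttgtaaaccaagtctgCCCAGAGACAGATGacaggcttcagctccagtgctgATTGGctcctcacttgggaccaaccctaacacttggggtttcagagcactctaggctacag
B2m: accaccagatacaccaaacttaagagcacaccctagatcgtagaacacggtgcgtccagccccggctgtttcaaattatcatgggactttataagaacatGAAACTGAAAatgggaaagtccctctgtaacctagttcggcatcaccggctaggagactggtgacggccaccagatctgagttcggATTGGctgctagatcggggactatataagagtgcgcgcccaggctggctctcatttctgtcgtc
Tap1: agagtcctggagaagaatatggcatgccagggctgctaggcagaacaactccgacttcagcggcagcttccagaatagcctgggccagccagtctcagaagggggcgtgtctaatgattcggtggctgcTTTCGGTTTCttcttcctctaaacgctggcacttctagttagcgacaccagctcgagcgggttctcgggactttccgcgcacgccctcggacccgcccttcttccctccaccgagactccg

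All 4 class II chain promoters held the letters CTGATTGG, which contain the Y box core, and 3.19% of the 33469 rat promoters searched did. The letters began 52 bases before the start in RT1-Da, 83 in RT1-Db1, 46 in RT1-Ba and 64 in RT1-Bb. An X box match lay upstream of them in RT1-Da, RT1-Db1 and RT1-Bb, with 20, 19 and 19 bases between the X box and the first of the letters CTGATTGG, while 6.40% of all promoters held such a match somewhere. Cd74 and Tap2 each held an X box match with 2 mismatches too, 220 and 241 bases before the start by its first base, on the plus and the minus strand. No X box match was found in this window of RT1-Ba. ISRE letters occurred in B2m, Tap1 and Tap2 and in 3.41% of all promoters. The core ATTGG alone is common, at 34.0% of promoters, and was also found in B2m and Cd74. These matches describe letters, not binding.

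Libraries held 17.2 to 39.9 M fragments (M, mega), and the 4 libraries at 60 days had the lowest totals, at 17.2 to 22.4 M, so that depth and the 60-day group cannot be told apart by totals. By library totals, before TMM scaling, a count of 3 fragments corresponds to 0.0752 to 0.175 counts per M (CPM), which covers counting error only. In unoperated library 1 this was 0.131 CPM by totals and 0.169 CPM after TMM scaling. Levels below are CPM scaled by TMM factors, and each change is a log2 fold change ± standard error (SE) with a Benjamini-Hochberg adjusted p over 11658 tested genes, from edgeR's quasi-likelihood test. Scaling by library totals instead moved the median log2 fold change of all tested genes from 0.06 to 0.72 at 10 days, from 0.05 to 0.54 at 30 days and from 0.04 to 0.45 at 60 days. Among called genes it raised the share called higher from 53.1% to 87.4%, from 52.2% to 84.1% and from 50.7% to 82.7%. With library totals 9348, 8754 and 8145 genes were called, in place of 7304, 7533 and 6880. Most tested genes were thus called higher with that scaling, which is the background for list counts given with it. With TMM factors nearly as many genes were called lower as higher against 0 days, which is the background for list counts called lower. Muscle identity was plain: the summed level of 8 skeletal muscle markers found in the table, such as Acta1 and Ckm, was 200004 to 220116 CPM at 0 days, 61570 to 64672 at 10 days, 90463 to 130142 at 30 days and 109145 to 130001 after 60 days.

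Of the 8 antigen presentation genes that passed the filter for low counts, 7 rose at each of 10, 30 and 60 days against unoperated muscle, and none fell. The background was high: 33.3% of all tested genes were called higher at 10 days, 33.7% at 30 days and 29.9% at 60 days. Being higher at all 3 times was rarer, at 16.6% of tested genes, and these 7 genes were among them. Every injured library lay above every unoperated one for 7 of the 8 genes at 10 days, 7 at 30 days and 6 after 60 days, beside 31.2%, 31.1% and 24.0% of tested genes. In a joint test of all 4 groups the same 7 were called, beside 84.7% of tested genes. The median log2 fold change of the 8 genes was 1.84 at 10 days, 2.08 at 30 days and 1.42 after 60 days, beside 0.06, 0.05 and 0.04 over all tested genes. No class II gene was called between injured times, whereas B2m dropped from 30 to 60 days. The remaining gene, Tap2, was listed at 0 in 15 libraries and at 1 fragment in 60-day library 4. It was not tested, and why a gene of this kind is listed at 0 was not tested either.

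**Figure D1:**
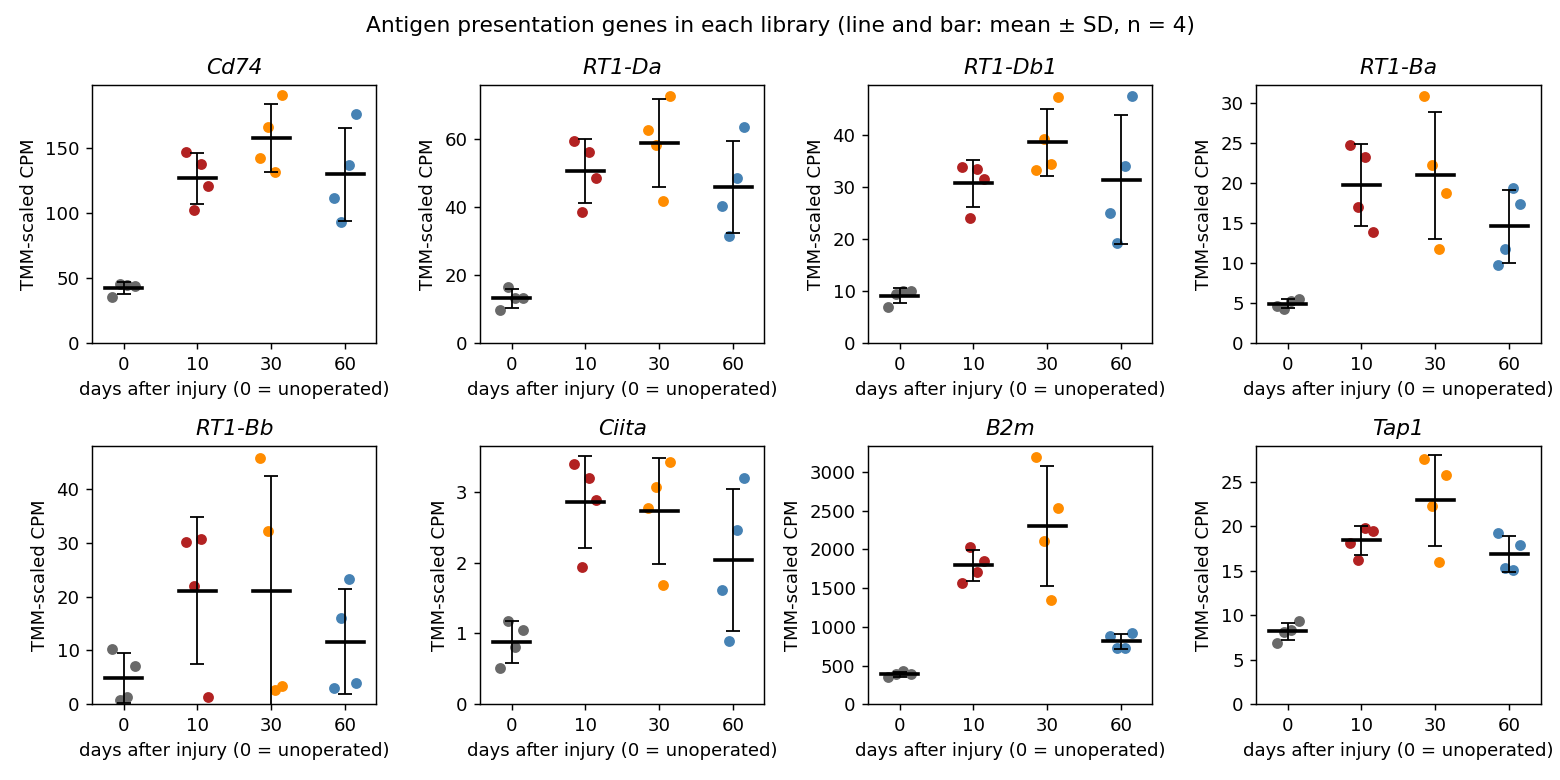
Level (TMM-scaled CPM, vertical axis) of 8 antigen presentation genes against days after injury (0 = unoperated), with 1 point per library and a line and bar for the mean ± SD (n = 4, bars clipped at 0). Cd74, the RT1-D pair, RT1-Ba and B2m stay above unoperated muscle at 60 days. B2m falls from 1351 to 3195 CPM at 30 days to 723 to 917 at 60 days. RT1-Ba is at 11.8 to 30.9 CPM at 30 days and 9.82 to 19.3 at 60 days, which overlap, and RT1-Bb scatters in every group.

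Cd74 encodes the invariant chain, which fills the groove of new class II molecules and escorts them to endosomes. Its level in the 4 unoperated libraries was 35.5, 45.7, 44.9 and 44.0 CPM. At 10 days it was 147, 102, 137 and 121 CPM, at 30 days 142, 166, 132 and 190 CPM, and at 60 days 111, 93.4, 137 and 176 CPM. Every injured library lay above every unoperated one, and the 3 injured groups overlapped each other. Cd74 was 2.98-fold higher at 10 days (log2 fold change 1.57 ± 0.18, adjusted p 1.21e-06), 3.70-fold at 30 days (1.89 ± 0.18, 2.39e-07) and 3.04-fold at 60 days (1.61 ± 0.18, 1.96e-06). Between 30 and 60 days its log2 difference was -0.28 ± 0.17, adjusted p 0.255. Without 60-day library 4, the highest of its group, that difference was -0.45 and passed (adjusted p 0.0483).

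The RT1-D pair behaved like Cd74. RT1-Da, the alpha chain, was at 9.73, 16.4, 13.3 and 13.5 CPM in unoperated muscle. It reached 38.4 to 59.4 CPM at 10 days, 41.7 to 72.7 at 30 days and 31.4 to 63.4 after 60 days, with no overlap with unoperated muscle. RT1-Da was 3.81-fold higher at 10 days (log2 fold change 1.93 ± 0.23, adjusted p 2.15e-06), 4.42-fold at 30 days (2.14 ± 0.23, 9.57e-07) and 3.46-fold at 60 days (1.79 ± 0.23, 8.51e-06). RT1-Db1, its beta chain partner, was at 6.97 to 10.1 CPM in unoperated libraries, 24.1 to 33.8 at 10 days, 33.2 to 47.2 at 30 days and 19.2 to 47.5 after 60 days. It was 3.35-fold, 4.20-fold and 3.43-fold higher in the same order (log2 fold change 1.74 ± 0.23, 2.07 ± 0.23 and 1.78 ± 0.23, adjusted p 8.16e-06, 1.78e-06 and 1.18e-05). As for Cd74, the 60-day libraries were spread, with library 4 highest. Leaving that library out moved RT1-Db1 at 60 against 30 days from -0.29 (adjusted p 0.361) to -0.55 (0.0443).

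The proportion of RT1-Db1 to Cd74 moved within a narrow range. All 10- and 30-day libraries, at 23.0 to 26.1 RT1-Db1 fragments per 100 Cd74 fragments, lay above the unoperated ones, at 19.6 to 22.6. For every 100 Cd74 fragments there were 21.4 ± 1.47 (SD, n = 4) RT1-Db1 fragments in unoperated muscle, 24.2 ± 1.29 at 10 days, 24.5 ± 1.23 at 30 days and 23.7 ± 2.78 after 60 days. RT1-Da stood at 30.9 ± 3.64 fragments per 100 Cd74 fragments at 0 days and at 39.8 ± 1.51, 37.2 ± 5.25 and 35.3 ± 1.15 afterwards. Over the 16 libraries, the Pearson correlation of log2 CPM with Cd74 was 0.995 for RT1-Db1 and 0.99 for RT1-Da. The 16 points include 4 groups that differ in level, and all share the same scaling.

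RT1-Ba, the alpha chain of the other class II pair, was at 4.72, 4.26, 5.26 and 5.56 CPM in unoperated muscle. At 10 days it was 24.7, 16.95, 23.3 and 13.95 CPM, at 30 days 30.9, 22.2, 11.8 and 18.8, and at 60 days 9.82, 11.8, 19.3 and 17.3. All injured libraries again lay above the unoperated ones. RT1-Ba was 3.99-fold higher at 10 days (log2 fold change 2.00 ± 0.29, adjusted p 1.87e-05), 4.24-fold at 30 days (2.08 ± 0.29, 1.42e-05) and 2.95-fold at 60 days (1.56 ± 0.29, 0.0003). At 60 against 30 days it differed by -0.53 ± 0.27 (adjusted p 0.172), and by -0.72 (0.0437) without 30-day library 3, the lowest of its group.

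Its partner RT1-Bb, the beta chain, scattered within every group. It was at 10.3, 0.705, 1.38 and 7.19 CPM in unoperated muscle, 30.2, 22.0, 30.7 and 1.43 CPM at 10 days, 45.8, 32.3, 2.61 and 3.37 CPM at 30 days and 3.08, 16.1, 23.3 and 3.98 CPM at 60 days. The injured groups overlapped unoperated muscle at all 3 times, and no comparison passed: the log2 fold change was 2.16 ± 1.10 at 10 days (adjusted p 0.102), 2.16 ± 1.10 at 30 days (0.0987) and 1.28 ± 1.12 at 60 days (0.34). Without 10-day library 4 the change at 10 days was 2.55 with an adjusted p of 0.0466. Scaling by library totals gave 2.81 at 10 days (0.0358) and 2.69 at 30 days (0.0457).

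The scatter of RT1-Bb was not shared by RT1-Ba. The number of RT1-Bb fragments per RT1-Ba fragment was 2.18, 0.166, 0.263 and 1.29 at 0 days, 1.22, 1.30, 1.32 and 0.102 at 10 days, 1.48, 1.45, 0.221 and 0.179 at 30 days and 0.313, 1.36, 1.21 and 0.230 at 60 days. The 16 ratios left a gap between 0.313 and 1.21, with 7 libraries below it and 9 above it, and each group had libraries on both sides. The biological coefficient of variation of RT1-Bb within groups was 0.977, larger than that of 99.9% of tested genes, whereas it was 0.174 for Cd74, 0.212 for RT1-Da, 0.216 for RT1-Db1 and 0.262 for RT1-Ba. RT1-Bb was also the only one of the 9 genes with fractional counts, in 11 of its 16 libraries; such values arise where a fragment is divided between transcripts or places. Of the 49 RT1 genes in the table, 18 had fractional counts. RT1 genes are near-identical copies in part and vary between rats, so the values of single RT1 genes are uncertain. The cause of the scatter of RT1-Bb was not tested.

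Ciita, the switch for class II genes, had few fragments. Counts in unoperated muscle were 9 to 32 fragments, or 0.506, 1.17, 0.803 and 1.05 CPM. The injured libraries held 3.40, 1.94, 3.20 and 2.89 CPM at 10 days, 2.76, 3.06, 1.68 and 3.42 at 30 days and 1.61, 0.897, 2.46 and 3.20 at 60 days. The 10- and 30-day libraries lay above unoperated muscle, and 60-day library 2 fell within its range. Ciita was 3.16-fold higher at 10 days (log2 fold change 1.66 ± 0.35, adjusted p 0.000521), 3.03-fold at 30 days (1.60 ± 0.35, 0.000768) and 2.28-fold at 60 days (1.19 ± 0.36, 0.0101). The 60-day call was lost without 60-day library 4, where the change was 0.89 with an adjusted p of 0.0501.

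Fewer or more cells of a type and less or more RNA per cell cannot be told apart in bulk muscle. Markers of macrophages and of most other leukocytes listed moved with these genes. All 16 macrophage and monocyte markers in the table were called higher at 30 and at 60 days and 14 at 10 days. Their summed level was 61.3 to 95.5 CPM at 0 days, 182 to 246 at 10 days, 264 to 324 at 30 days and 214 to 388.5 after 60 days, with 60-day library 4 highest, as for Cd74. Dendritic cell markers, of which 7 of 8 were tested, had 4, 6 and 4 called higher and 1, 1 and 0 lower at 10, 30 and 60 days (none lower with library totals); their sum was 9.53 to 14.3 CPM at 0 days and 20.3 to 33.7 CPM in all injured libraries. T cell markers summed to 5.00 to 7.76 CPM at 0 days and 11.2 to 24.4 CPM afterwards, with 8, 9 and 5 of 9 tested called higher. Only 2 of the 7 B cell markers present were tested, with 1 called higher at each time; all 7 summed to 0.506 to 1.03 CPM at 0 days and 0.922 to 2.83 CPM afterwards, which overlap. Of 7 natural killer cell markers present, 4 were tested, with 4, 4 and 3 called higher at 10, 30 and 60 days. All 7 summed to 0.506 to 1.70 CPM at 0 days and 2.08 to 3.97 CPM afterwards. None of the markers on these lists was at 0 in all libraries. Over all tested genes 33.3%, 33.7% and 29.9% were called higher at 10, 30 and 60 days. The part of these cells in the class II rise was not tested.

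**Figure D2:**
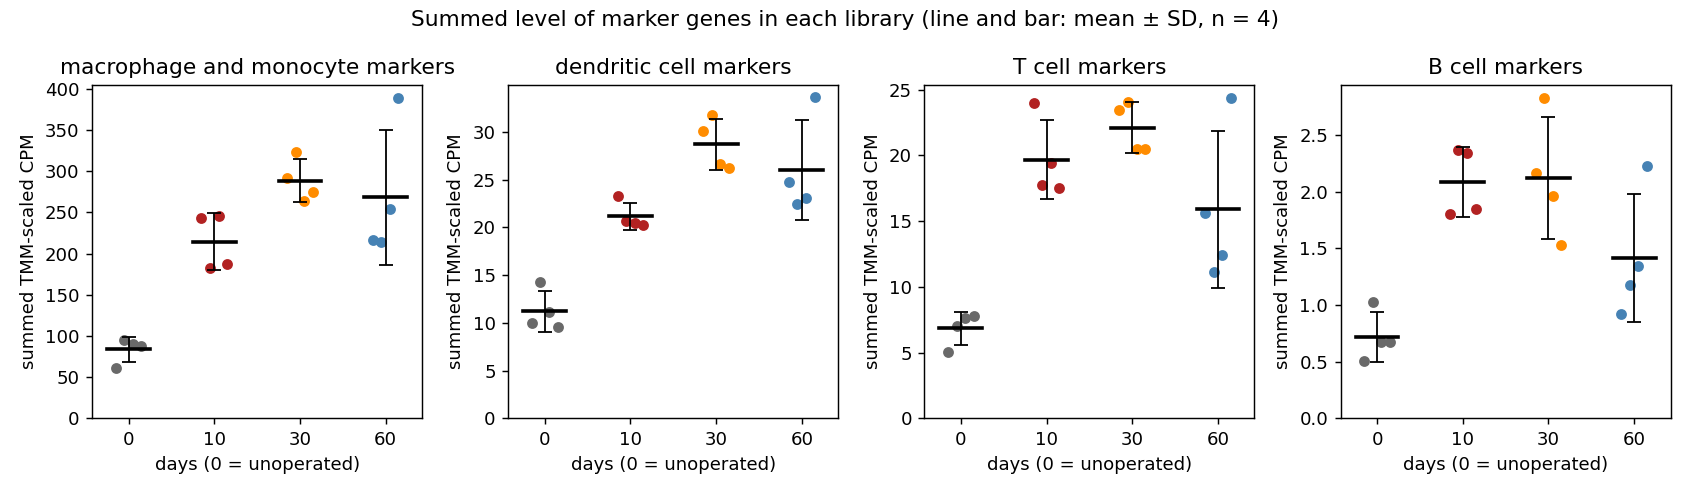
Summed level (TMM-scaled CPM, vertical axis) of macrophage and monocyte, dendritic cell, T cell and B cell markers against days after injury, with 1 point per library and a line and bar for the mean ± SD (n = 4). Every injured library exceeds every unoperated one for macrophage markers (61.3 to 95.5 CPM at 0 days, 182 to 388.5 afterwards), and the B cell sum does not exceed 2.83 CPM.

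The genes whose log2 CPM followed Cd74 most closely over the 16 libraries, out of 10136 compared, were Fcer1g (Pearson r 0.983), Vat1 (0.979), Nckap1l (0.978), Slc40a1 (0.978) and Laptm5 (0.974). Fcer1g is the shared signalling chain of Fc receptors, Nckap1l a leukocyte actin regulator, Slc40a1 the iron exporter ferroportin and Laptm5 a lysosomal protein of blood cells. Fcer1g and Laptm5 are also on the macrophage list. Fcer1g showed log2 fold changes of 1.76, 1.95 and 1.79 at 10, 30 and 60 days against unoperated muscle, beside 1.57, 1.89 and 1.61 for Cd74.

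Further class II genes were few. RT1-Db2, a second D beta gene, had 3 to 10 fragments per library at 0 days and was higher at 10 days (log2 fold change 1.98 ± 0.51, adjusted p 0.0028), 30 days (2.00 ± 0.51, 0.00276) and 60 days (2.09 ± 0.52, 0.00272). RT1-DOa and RT1-DOb form the DO molecule, which restrains peptide exchange. RT1-DOa was higher at all 3 times, by 1.31, 1.53 and 1.09 (adjusted p 0.00833, 0.00254 and 0.0352), and RT1-DOb at 30 and 60 days, by 1.86 and 1.43 (0.00633 and 0.0445). RT1-DMa, the alpha chain of the peptide exchange catalyst DM, and RT1-Ha were listed at 0 in all libraries, and RT1-DMb had a single fragment in 1 library. At 60 against 30 days RT1-Db2, RT1-DOa and RT1-DOb differed by 0.09, -0.44 and -0.43 (adjusted p 0.902, 0.395 and 0.54).

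Among genes that process antigen for class II, 7 of 9 tested were called higher and 1 lower at each time. Their median log2 fold change was 0.75, 0.90 and 0.59 at 10, 30 and 60 days. The share of all tested genes called higher was 33.3%, 33.7% and 29.9%. Ctss, the cathepsin that trims the invariant chain, rose 2.43-fold, 3.76-fold and 3.49-fold (SE 0.22 on the log2 scale each time, adjusted p 9.25e-05, 1.84e-06 and 5.16e-06). Ctsl1, a cathepsin L gene, had its largest rise at 10 days, 3.24 ± 0.18 (8.47e-10), and was 0.90 and 0.50 higher later. Ctsh, another cathepsin, was 1.27 higher at 30 days, Cd63, a tetraspanin of late endosomes, 1.35 higher at 10 days, and Ifi30, which reduces disulfide bonds of antigens, 1.27 higher at 60 days. Ctsd, cathepsin D, was the gene called lower, by -0.22, -0.52 and -0.65; at 10 days this turned to 0.44 higher when libraries were scaled by totals.

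B2m, the light chain shared by all class I molecules, followed another course. In unoperated muscle it was at 348, 392, 424 and 387 CPM (mean 388 ± 31.3, SD, n = 4). At 10 days it was 1564, 2034, 1713 and 1854 CPM (1791 ± 200.1), and at 30 days 3195, 2108, 1351 and 2538 CPM (2298 ± 774). The 60-day libraries were at 879, 724, 723 and 917 CPM (810 ± 102), below every 10- and 30-day library and above every unoperated one. B2m was 4.62-fold higher at 10 days (log2 fold change 2.21 ± 0.19, adjusted p 6.22e-08), 5.92-fold at 30 days (2.57 ± 0.20, 1.99e-08) and 2.09-fold at 60 days (1.06 ± 0.19, 0.000167). The 10- and 30-day levels overlapped and did not pass (0.36 ± 0.19, 0.122), but did without 30-day library 3, the lowest (0.54, 0.00517).

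Between 30 and 60 days B2m fell 2.84-fold (log2 fold change -1.50 ± 0.19, adjusted p 7.37e-05) with no overlap, as 11.3% of tested genes did, and it was 2.21-fold lower at 60 than at 10 days, again without overlap, as were 27.5% of tested genes (-1.14 ± 0.19, 6.79e-05). Tap1 was the other antigen presentation gene called at 60 against 30 days, so 2 of 8 were called, beside 22.6% of all tested genes, and at 60 against 10 days 1 of 8, beside 61.1%. At 30 against 10 days edgeR called 0 of 8, beside 47.3% of tested genes; 1 gene, Tap1, had an unadjusted p under 0.05, and DESeq2 and limma-voom also called 0. The pattern of B2m, higher at all 3 times and lower at 60 than at 30 days, was met by 3.52% of tested genes. Its lower level at 60 days coincided with the lower depth of that group.

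Tap1, a subunit of the peptide transporter, was at 6.92, 8.14, 8.34 and 9.29 CPM in unoperated muscle. It was at 18.1, 16.2, 19.7 and 19.4 CPM at 10 days, 27.5, 22.3, 15.96 and 25.7 at 30 days and 19.2, 15.3, 15.02 and 17.9 at 60 days. All injured libraries were above the unoperated ones, and the 30-day group overlapped both other injured groups. Tap1 was 2.25-fold higher at 10 days (log2 fold change 1.17 ± 0.15, adjusted p 3.53e-06), 2.79-fold at 30 days (1.48 ± 0.15, 3.25e-07) and 2.06-fold at 60 days (1.04 ± 0.15, 2.15e-05). The drop from 30 to 60 days, -0.44 ± 0.14 (adjusted p 0.0359), was not stable. It was lost with limma-voom (0.0545), with only these 2 groups fitted (0.0982), and in 6 of 16 fits that left out 1 library: 30-day library 1, 2 or 4 (0.127, 0.0529 and 0.103) or 60-day library 2, 3 or 4 (0.0977, 0.0998 and 0.0517). At 30 against 10 days Tap1 differed by 0.32 ± 0.14 (0.0756), and by 0.45 (0.00543) without 30-day library 3 or 0.38 (0.0352) with upper-quartile factors.

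**Figure D3:**
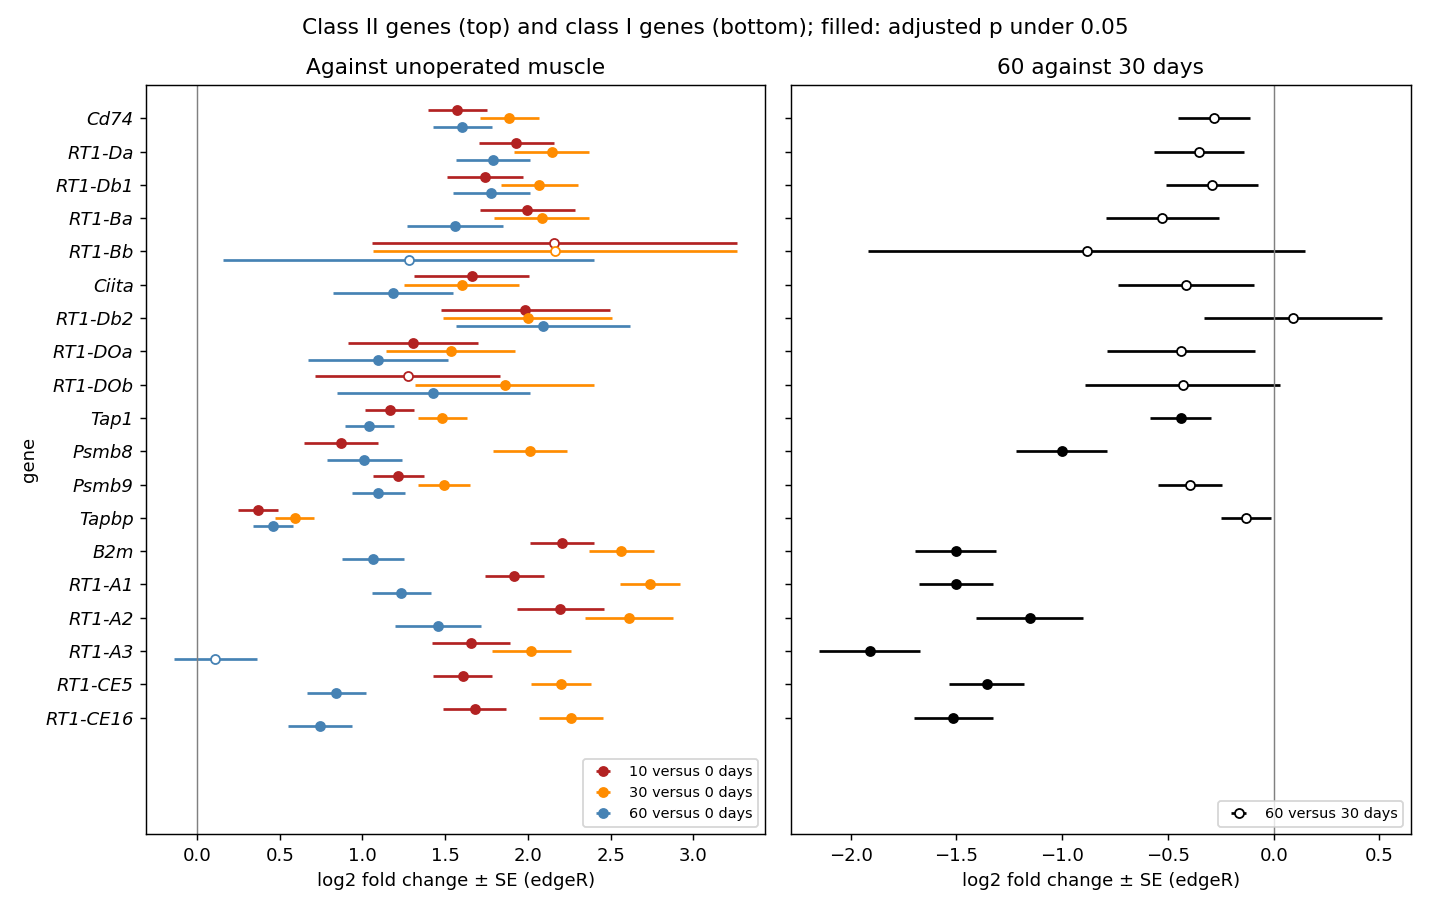
Log2 fold change ± SE from edgeR (horizontal axis) for class II genes (top) and class I genes (bottom), at 10, 30 and 60 days against unoperated muscle (left) and at 60 against 30 days (right), with filled points for an adjusted p under 0.05. Of the class II genes none has a filled point on the right, where B2m and RT1-A1 both lie at -1.50; RT1-A2, RT1-A3, RT1-CE16 and Tapbp were added to the plot after their values were seen.

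Cd74 fragments per 100 B2m fragments compare 1 gene of each pathway within each library. This ratio does not depend on scaling between libraries. It was 10.2, 11.6, 10.6 and 11.4 in unoperated muscle, 9.38, 5.03, 8.01 and 6.52 at 10 days, 4.45, 7.87, 9.74 and 7.50 at 30 days and 12.7, 12.9, 19.0 and 19.2 at 60 days. The ratio was lower than in unoperated muscle in all 8 libraries at 10 and 30 days and higher in all 4 at 60 days. Its mean was 10.9 ± 0.670 (SD, n = 4), 7.23 ± 1.88, 7.39 ± 2.19 and 15.9 ± 3.64 in order of time. The log2 difference from unoperated muscle was -0.63 at 10 days, -0.62 at 30 days and 0.51 after 60 days, and the 60-day ratio was 1.14 above that at 30 days and 1.15 above that at 10 days on the log2 scale. Each of these had an exact permutation p of 0.0286 (two-sided), the smallest that 4 against 4 allows, and an adjusted p of 0.0343 over 6 comparisons. With any 1 unoperated library left out the adjusted p became 0.0857 at 10 and 30 days and 0.103 at 60 days, and without 60-day library 3 or 4 that for 60 against 30 days became 0.0686. At 30 against 10 days the difference was 0.01 (exact permutation p 0.943). The ratio describes these 2 genes and not the pathways. Tap1 rose less than Cd74 at 10, 30 and 60 days (log2 fold change 1.17, 1.48 and 1.04 beside 1.57, 1.89 and 1.61). B2m rose more than Cd74 at 10 and 30 days (2.21 and 2.57) and less at 60 days (1.06).

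**Figure D4:**
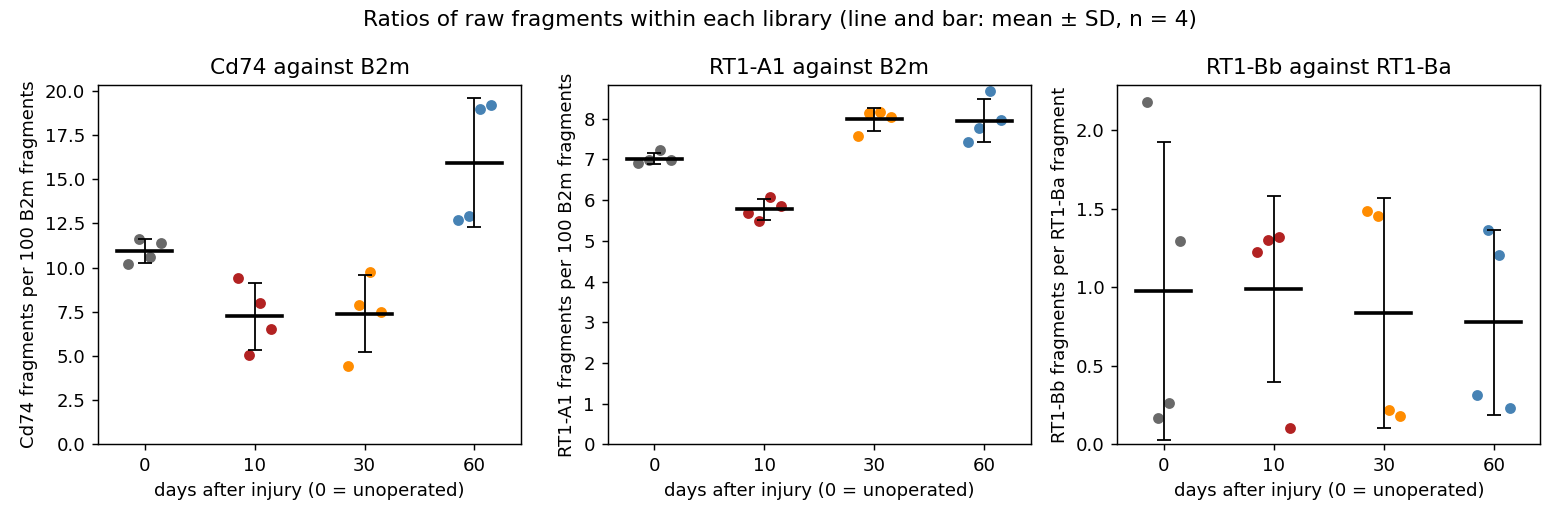
Fragments of Cd74 per 100 B2m, of RT1-A1 per 100 B2m and of RT1-Bb per RT1-Ba (vertical axes) against days after injury, with 1 point per library and a line and bar for the mean ± SD (n = 4). The Cd74 ratio is 4.45 to 9.74 at 10 and 30 days, below the 10.2 to 11.6 of unoperated muscle, and 12.7 to 19.2 at 60 days; the RT1-A1 ratio stays between 5.48 and 8.67; the RT1-Bb ratio splits within every group.

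Most class I heavy chains tested were called higher after injury, and some were, like B2m, lower at 60 than at 30 days. Of 42 heavy chain and class I-like genes in the table, 32 were tested; 22 were called higher and 1 lower at 10 days, 29 and 0 at 30 days, and 20 and 0 at 60 days, with medians of 1.35, 1.82 and 1.03. Over all tested genes 33.3%, 33.7% and 29.9% were called higher at these times. With library totals 29, 29 and 26 of the 32 were higher and 1, 0 and 0 lower, and most tested genes were higher too. At 60 against 30 days 11 were called lower and 0 higher, with a median of -0.75, beside 12.4% of all tested genes called lower. The 16 tested RT1-A and RT1-CE genes had a median of -1.15 in that comparison, with 8 lower, and the 12 tested RT1-M, RT1-N, RT1-O, RT1-S and RT1-T genes -0.27, with 3 lower. Of the 32 genes, 4 were called higher and 7 lower at 60 against 10 days, and 10 higher and 0 lower at 30 against 10 days. Over all tested genes 61.1% and 47.3% were called in either direction. These genes share sequence, so their counts are not independent. RT1-CE13 was listed at 0 in all libraries.

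RT1-A1, a heavy chain of the classical locus, was at 24.1 to 30.7 CPM in unoperated muscle, 88.8 to 111 at 10 days, 110 to 242 at 30 days and 56.3 to 73.0 after 60 days. Its changes against unoperated muscle were 1.92 ± 0.18, 2.74 ± 0.18 and 1.24 ± 0.18 (adjusted p 1.48e-07, 6.51e-09 and 2.49e-05), and it fell by 1.50 ± 0.17 from 30 to 60 days (3.86e-05). Per 100 B2m fragments there were 7.02 ± 0.136 (SD, n = 4) RT1-A1 fragments in unoperated muscle, 5.77 ± 0.256 at 10 days, 7.98 ± 0.283 at 30 days and 7.96 ± 0.527 after 60 days, a narrower range than that of the Cd74 ratio. RT1-CE11 had the largest rise of the list, from 0 to 28.8 fragments per library at 0 days to 512 to 882 at 10 days (log2 fold change 5.81 ± 1.25, adjusted p 0.000976), but was at 0 to 118 fragments at 60 days, and its counts were fractional. Other large rises were RT1-O1 at 10 days (2.42), RT1-N2 at 30 days (3.35, with overlapping groups), and Mr1, which presents vitamin B metabolites, and RT1-CE2 at 60 days (1.83 and 1.75). Cd1d1, which presents lipids, was the gene called lower at 10 days (-3.44 ± 0.78, 0.00142), with groups that overlapped.

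The genes most like B2m over the 16 libraries were RT1-CE5 (Pearson r 0.987), Aph1b (0.984), Dclk1 (0.983), RT1-A1 (0.981) and Chrng (0.980). Chrng encodes the gamma subunit of the fetal acetylcholine receptor, which muscle fibres make again after denervation. Its log2 fold changes were 7.11, 7.58 and 2.54 at 10, 30 and 60 days against unoperated muscle and -5.05 at 60 against 30 days, and those of Dclk1, a microtubule-associated kinase, were 6.51, 7.04, 2.33 and -4.72. The sizes thus differ widely from those of B2m while the order of the groups is the same. Cd74 itself had a correlation of 0.836 with B2m and 0.936 with Tap1.

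Tap1 was most like Macf1 (Pearson r 0.970), Scd (0.963), Srgap2 (0.957), Ptpn13 (0.956) and Psmb9 (0.954). Psmb9 is an immunoproteasome subunit whose gene lies beside Tap1. It was higher by 1.22 ± 0.16, 1.49 ± 0.16 and 1.10 ± 0.16 at 10, 30 and 60 days (adjusted p 3.93e-06, 5.29e-07 and 2.27e-05). Psmb8, another immunoproteasome subunit, was higher by 0.87, 2.01 and 1.01 (0.00284, 1.31e-06 and 0.00122) and fell by 1.00 ± 0.21 from 30 to 60 days (0.00368). In all, 2, 5 and 2 of the 5 immunoproteasome genes were called higher at 10, 30 and 60 days, and none lower. The share of all tested genes called higher was 33.3%, 33.7% and 29.9%. With library totals all 5 were called higher at each time, as were most tested genes.

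Of the peptide-loading genes, 5, 6 and 3 of 8 were called higher and 1, 0 and 0 lower, with medians of 0.30, 0.23 and 0.15. Over all tested genes 33.3%, 33.7% and 29.9% were called higher at 10, 30 and 60 days. With library totals 7, 8 and 6 of the 8 were higher and none lower, with medians of 0.96, 0.72 and 0.55. Most tested genes were higher too with that scaling. Pdia3, the disulfide isomerase of the loading complex, rose by 0.64 ± 0.10, 0.89 ± 0.10 and 0.79 ± 0.10 (adjusted p 1.96e-05, 7.22e-07 and 3.68e-06). Tapbpl, a peptide editor, rose by 0.93 at 30 days (0.000121), and Bcap31, a membrane protein of the endoplasmic reticulum, by 0.56 at 60 days (1.51e-05). Erap1, which trims peptides, was lower at 10 days (-0.56, 0.000563), and turned to 0.10 with library totals.

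Regulators of MHC genes were called in both directions, at shares near those of all tested genes. Of 12 listed transcription factors, 11 were in the table and tested. At each time 3 were called higher and 3 lower against unoperated muscle. The share of all tested genes called higher was 33.3%, 33.7% and 29.9% at 10, 30 and 60 days. Of all called genes 53.1%, 52.2% and 50.7% were higher and the rest lower. With library totals 7, 6 and 6 of the 11 were higher and none lower, and most tested genes were higher too. Irf8, a factor of myeloid cells, rose by 1.83 ± 0.25, 2.02 ± 0.25 and 0.80 ± 0.27 (adjusted p 9.63e-06, 4.06e-06 and 0.0187) and fell by 1.21 ± 0.24 between 30 and 60 days (0.00219). Irf1 rose by 0.78 and 0.83 at 10 and 30 days (2.81e-05 and 1.77e-05), and Rfx5, which binds the X box, by 0.69 at 60 days (3.65e-05). The NF-Y subunits Nfyc and Nfyb were lower at 10 days, by -0.74 and -0.69, and Nfyb and the RFX subunit Rfxank at 30 days, by -0.44 and -0.40; the 30-day falls became 0.06 and 0.09 with library totals.

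Interferon signalling genes and targets, a list that overlaps that of the factors above, were mixed as well, with 16, 8 and 11 of 26 tested called higher and 1, 2 and 5 lower at 10, 30 and 60 days, and medians of 0.85, 0.45 and 0.65. Over all tested genes 33.3%, 33.7% and 29.9% were called higher, so the 30-day count lay near that share. With library totals 24, 18 and 17 of the 26 were higher and 0, 0 and 1 lower, and most tested genes were higher too. Cxcl10, a chemokine for T cells, rose 5.92-fold, 4.29-fold and 3.89-fold (SE 0.49, 0.50 and 0.51 on the log2 scale, adjusted p 0.000253, 0.00156 and 0.00365). Mx1, an antiviral GTPase, had its largest value at 10 days (2.43, 0.000172) and Gbp5, a guanylate-binding protein, at 30 days (2.71, 1.32e-07). Ifng itself was listed at 0 in all libraries. Irgm was lower at 10, 30 and 60 days (-0.38, -0.69 and -0.95), and its 10-day value (adjusted p 0.0387) became 0.28 with library totals. Jak2 was lower at 60 days (-0.69, 4.59e-05) after being 1.20 higher at 10 days.

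Of the co-stimulatory genes, 3, 4 and 3 of 7 tested were called higher and 1, 1 and 0 lower at 10, 30 and 60 days. The share of all tested genes called higher was 33.3%, 33.7% and 29.9%. With library totals 4, 5 and 4 of the 7 were higher and none lower, and most tested genes were higher too. Cd86, a ligand on antigen-presenting cells, was higher by 1.77 ± 0.51, 2.17 ± 0.49 and 2.15 ± 0.52 (adjusted p 0.00621, 0.0011 and 0.00196). Cd28, its receptor on T cells, was at 0.431 to 0.758 CPM in unoperated muscle and at 8.47 to 12.4 CPM at 10 days, and was higher by 4.10 ± 0.31, 3.88 ± 0.31 and 2.51 ± 0.33 (1.11e-08, 2.97e-08 and 8.7e-06). The inhibitory ligands Pdcd1lg2 and Cd274 were lower, Pdcd1lg2 at 10 days (-1.23, 0.0022) and Cd274 at 30 days (-0.65, 0.0134).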

How the data were processed

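The authors deposited 1 table of expected counts for all 16 libraries, raw fragments per gene and not scaled for depth or length, per the file headers; 233 of 17147 genes had a fractional value. Per the labels, RNA was extracted with miRNeasy and made into libraries with TruSeq mRNA reagents. The submitters' processing notes name bcl2fastq 1.8.4, FastQC, TopHat2 2.0.9, Bowtie2 2.1.0.0, Cufflinks, Cuffdiff 2.1.1 and the build rn5; annotation and strandedness are not given in the sources used here. Groups were taken from the time in each label. Counts were rounded, filtered with filterByExpr by group (11658 genes kept), scaled with TMM and fitted in 1 edgeR quasi-likelihood model of all 16 libraries with robust estimation; genes were called at a Benjamini-Hochberg adjusted p under 0.05. For ratios within libraries an exact permutation test, two-sided, was used. Besides the 9 genes, names were drawn from each list by called change in each comparison with 0 days. The rule was the 2 largest rises and the 2 largest falls, but not all of these are given at every time. Genes at 0 in all libraries are also named. So are the 5 genes most like Cd74, B2m and Tap1 by Pearson r of log2 CPM (prior count 2, mean of at least 1 CPM). Other names were chosen after their values were seen. The genes, lists and tests were chosen with earlier results of these data known. Promoters came from RefSeq tables of GRCr8.

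The method was tested on simulated data for 10 against 0 days: it called 151 of 200 genes given a 2-fold change and 10 of the unchanged genes, with 11523 tested. Far fewer genes changed there than the 7304 called in the real comparison, so the simulation cannot test the choice of scaling. Alternatives were RLE and upper-quartile factors, library totals, DESeq2, limma-voom, no filter, a mean of at least 1 CPM, no robust estimation, only the 2 compared groups, the replicate block, the letter ending each title as a covariate, an adjusted p under 0.01 and leaving out each library. The tools were DESeq2 1.42.0, limma 3.58.1 and edgeR 4.0.16 in R 4.3.3, with pandas 2.3.3, numpy 2.4.6 and matplotlib 3.10.9 in python 3.11.15.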

Additional observations from a re-analysis of the deposited data

Results flagged for a closer look

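Of 40 groups of 4 libraries checked for a library far from the rest, 2 stood out, and chance alone picks about 1 in 20 groups. The lowest unoperated library for Cd74, at 35.5 CPM, was separated from the next by 0.834 of the group's range. The lowest 10-day library for RT1-Bb fragments per RT1-Ba fragment, at 0.102, was separated by 0.920 of the range.

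The change from unoperated muscle differed between times, by a test of the difference itself, for 3 measures. B2m was lower at 60 than at 30 days by -1.50 and than at 10 days by -1.14 on the log2 scale. Tap1 was lower at 60 than at 30 days by -0.44. The Cd74 to B2m ratio was higher at 60 than at 30 days by 1.14 and than at 10 days by 1.15 on the log2 scale.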

How the results depend on the processing

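Against 0 days, 7 of the 8 genes were called under each alternative run, except for 8 at 10 and 30 days with library totals, 8 at 10 days without 10-day library 4, and 6 at 60 days at an adjusted p under 0.01 or without 60-day library 4; no called value of these genes changed sign. At 30 against 10 days 1 gene was called with upper-quartile factors and 0 to 2 when a library was left out. At 60 against 30 days 1 gene was called with limma-voom, 1 with only the 2 compared groups and 1 at an adjusted p under 0.01, and 1 to 3 when a library was left out; over all genes 1530 were called with only the 2 groups and 1244 at an adjusted p under 0.01, in place of 2636. The cause was not tested beyond the stricter threshold and fewer libraries. The numbers in the column names did not pair the libraries: same-numbered libraries had a mean correlation of 0.0013 over 24 pairs, with 4 over 0.1. The replicate block changed no call of the 8 genes; the Cd74 to B2m log2 differences under it were -0.63, -0.62, 0.51, 1.14 and 1.15 (10, 30 and 60 against 0 days, 60 against 30 and 60 against 10 days), each with an exact p of 0.125, the smallest that 4 pairs can give. Leaving out a library gave ratio differences of -0.77 to -0.47, -0.77 to -0.39, 0.42 to 0.62, 0.91 to 1.29 and 0.99 to 1.29 in that order, with the adjusted p above 0.05 without any 1 unoperated library (0.0857 at 10 and 30 days, 0.103 at 60 days) and without 60-day library 3 or 4 (0.0686 for 60 against 30 days); at 30 against 10 days the range was -0.15 to 0.24. Differences that were not called and changed sign were these. At 30 against 10 days Ciita became 0.0027 with upper-quartile factors. RT1-Ba became -0.059 with library totals. RT1-Bb became -0.12 with library totals, -0.088 with limma-voom, -0.0056 without the filter, -0.0033 with only the 2 groups and -0.065 with the replicate block. At 60 against 10 days Cd74 became -0.21 with library totals, and RT1-Db1 -0.21 with library totals, -0.026 with limma-voom and -0.018 with the replicate block. Leaving out a library gave ranges that crossed 0 at 30 against 10 days for Ciita (-0.21 to 0.11), RT1-Ba (-0.16 to 0.28) and RT1-Bb (-0.69 to 0.37), and at 60 against 10 days for Cd74 (-0.14 to 0.16), RT1-Da (-0.32 to 0.0017) and RT1-Db1 (-0.22 to 0.21). The share of all called genes that were higher at 30 against 10, 60 against 30 and 60 against 10 days was 27.6%, 26.3% and 28.0% with library totals in place of 48.6%, 45.3% and 47.7%, and at 60 against 0 days 63.6% with upper-quartile factors.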

Other observations

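Markers of other cells that can carry class I molecules did not share 1 course. Of the endothelial markers, 0, 0 and 1 of 8 were called higher and 7, 2 and 1 lower at 10, 30 and 60 days. At 60 against 30 days 4 of the 8 were higher, beside 2636 of 11658 tested genes called, of which 45.3% were higher. These counts depend on the scaling: with library totals 0, 4 and 7 were higher and 1, 0 and 0 lower, and 1 was higher at 60 than at 30 days. Pecam1 at 10 days, chosen after its values were seen, went from -0.42 (adjusted p 0.0237) to 0.25 (0.174). Schwann cell markers were called lower in 3 of 6 at 10 days and higher in all 6 at 60 days; with library totals 1 was lower and 2 higher at 10 days, and all 6 were again higher at 60 days. The 4 adipocyte markers in the table were called higher at 60 against 30 days (median log2 fold change 2.42). Over all tested genes 45.3% of the 2636 called in that comparison were higher. Of 6 fibroblast markers in the table, 4 were tested, and 3, 4 and 4 were called higher and none lower at 10, 30 and 60 days. At 60 against 30 days 0 were called, and 1 of the 6 was at 0 in all libraries. Over all tested genes 33.3%, 33.7% and 29.9% were called higher at 10, 30 and 60 days. In either direction 7304, 7533 and 6880 of the 11658 were called, of which 53.1%, 52.2% and 50.7% were higher and the rest lower. With library totals 87.4%, 84.1% and 82.7% of called genes were higher. The part of the cells on these lists in the class I levels was not tested.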
